A study of Mus musculus with 10 samples.

Results

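The genes described here are 5 members of the CCN family (Ccn1, Ccn2, Ccn3, Ccn4 and Ccn5) and 3 further genes known to respond to the coactivator YAP (Ankrd1, Amotl2 and Axl). They were chosen by name, as 8 of the 55486 genes in the count table, and each was present as a single row. RNA sequencing of sorted cells from 5 organotypic gels of collagen and basement membrane extract gave 10 libraries after 7 days of culture. Normal mammary fibroblasts (NFs) were taken from mTmG mice aged 8 weeks, whose cells are red (Tomato) until Cre recombinase turns them green (GFP), and were split by the surface protein CD26. CD26- NFs stayed red, whereas a Cre-carrying adenovirus had made the CD26+ NFs green, so that subset and virus cannot be told apart. Equal numbers of each subset went into a gel, and per the study's methods several mice were usually pooled in a sort. The tumor cells were lines from mice that model invasive lobular carcinoma. In these mice Cre driven by the Wap promoter (WapCre) acts on floxed alleles in mammary epithelium, among them that of E-cadherin (Cdh1F/F). NFs grew alone in gel 1. Tumor cells grew alone in gels 2 (line 13-MCB-17) and 3 (line 10-SJK-221), and the same lines grew with NFs in gels 4 and 5, in that order. The 6 groups were therefore CD26- NFs alone (n = 1), CD26+ NFs alone (n = 1), CD26- NFs in co-culture (n = 2), CD26+ NFs in co-culture (n = 2), tumor cells alone (n = 2) and tumor cells in co-culture (n = 2).

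YAP and its relative TAZ carry no DNA-binding domain. When the Hippo kinases are quiet, as on stiff matrix or in spread cells, YAP and TAZ enter the nucleus and bind the TEAD factors, which recognise a short motif at target genes. CCN proteins are secreted into the matrix and signal through integrins and other surface receptors. Ccn1 (formerly Cyr61) and Ccn2 (formerly CTGF, much studied in fibrosis) are the classic targets, while Ccn3 (formerly Nov), Ccn4 (formerly Wisp1, a Wnt-induced gene) and Ccn5 (formerly Wisp2, which lacks the C-terminal domain of its relatives) belong to the family without being standard YAP readouts. Ankrd1 encodes an ankyrin-repeat protein that acts in the nucleus and in muscle sarcomeres. Amotl2 encodes a scaffold of the angiomotin family that holds YAP back and is itself induced by it. Axl is a receptor tyrosine kinase whose ligand is Gas6.

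On GRCm38 the family is spread over the genome, except that Ccn3 and Ccn4 lie on the same chromosome. Ccn1 (ENSMUSG00000028195) spans chr3:145646976-145649981 on the minus strand, Ccn2 (ENSMUSG00000019997) chr10:24595442-24598683 on the plus strand, Ccn3 (ENSMUSG00000037362) chr15:54745702-54754039 on the plus strand, Ccn4 (ENSMUSG00000005124) chr15:66891320-66923201 on the plus strand and Ccn5 (ENSMUSG00000027656) chr2:163820861-163833146 on the plus strand. Ankrd1 (ENSMUSG00000024803) spans chr19:36111961-36120099 on the minus strand, Amotl2 (ENSMUSG00000032531) chr9:102716672-102733418 on the plus strand and Axl (ENSMUSG00000002602) chr7:25757273-25788705 on the minus strand. The exons of Ccn2 overlap an exon of Gm15270 on the opposite strand, and the use of strand in counting was not given in the sources used here, so reads of the overlap cannot be told apart. The merged exons of the other 7 genes overlap those of no other gene.

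The TEAD motif is shown first, because it is the sequence through which the 3 YAP-responsive genes and Ccn1 are usually grouped. RefSeq start sites on GRCm38.p6 were given for 4 of the 8 genes (Ccn1, Ankrd1, Amotl2 and Axl), and not for Ccn2, Ccn3, Ccn4 and Ccn5. The 250 bases before each start were searched for GGAATG on both strands, which reads CATTCC on the other strand. All 4 windows held it, against 12.6% of 32851 windows of the same length. The AP-1 motif TGANTCA, a palindrome that does not overlap the TEAD motif by sequence, was in 0 of the 4 windows and in 6.75% of all windows. Each match is printed 5′ to 3′ on the gene's strand, with the motif in capitals and 12 bases on either side.
Ccn1, chr3:145650071-145650100, minus strand, first motif base 103 bases before the start: cgcgccaaccaaCATTCCtgagatgtttga
Amotl2, chr9:102717727-102717756, plus strand, 65 bases before the start: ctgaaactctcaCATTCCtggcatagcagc
Ankrd1, chr19:36119950-36119979, minus strand, 123 bases before the start: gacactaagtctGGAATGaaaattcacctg
Ankrd1, chr19:36120037-36120066, minus strand, 210 bases before the start: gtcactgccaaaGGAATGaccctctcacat
Axl, chr7:25788949-25788978, minus strand, 233 bases before the start: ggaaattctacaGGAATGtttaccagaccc
The Amotl2 and Ankrd1 matches lie before the RefSeq start but inside exons of other transcripts of the same genes in GENCODE M21. A match describes these letters only, and binding was not measured.

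Libraries held 14142334 to 18408940 counts, so that 3 counts, the limit an observed 0 allows, equal 0.163 to 0.212 CPM, the count scaled to the library total. Levels below are CPM unless given per kilobase of merged exons. Fibroblast identity held, since 8 fibroblast markers summed to 23316 to 74846 CPM in the NF libraries and to 38.7 to 177 CPM in the tumor libraries. The 8 epithelial markers summed to 3297 to 4513 CPM in tumor libraries and to 0.435 to 0.912 CPM in NFs alone, but to 104 to 277 CPM in NFs from shared gels, where all 8 were detected in every library. Set against the tumor library of the same gel, this epithelial-marker share was 2.97% and 2.98% in CD26- NFs and 4.35% and 6.39% in CD26+ NFs. The opposite share, of fibroblast markers in tumor libraries from shared gels, was 0.578% and 0.301%. Single epithelial markers gave other shares than the sum. Epcam gave lower ones, at 6.42 to 15.9 CPM in these NFs against 335 and 358 CPM in their tumor cells. Cldn3 gave higher ones in CD26+ NFs, at 3.66 and 4.88 CPM against 47.3 and 49.3 CPM. Products of the summed share with a tumor level, given below, can therefore be too high or too low. Dpp4, which encodes CD26, had 4, 12 and 4 counts in the CD26+ libraries and 0, 0 and 1 in the CD26- libraries, so this check of the sort rests on few reads. The study reports, by flow cytometry, that CD26 fell fast in cultured CD26+ NFs. The subset names therefore give CD26 at the first sort, not after culture. Immune markers summed to 5.46 to 10.0 CPM in NFs alone and 31.3 to 62.4 CPM in NFs from shared gels, and to 101 to 301 CPM in tumor cells alone and 47.8 to 92.2 CPM in tumor cells from shared gels. Pericyte markers summed to 58.0 to 82.7 CPM in NFs alone, 134 to 285 CPM in NFs from shared gels and at most 1.97 CPM in tumor libraries. Myoepithelial markers summed to at most 5.12 CPM in NFs and 59.0 to 98.2 CPM in tumor cells, and endothelial markers to 4.35 and 9.76 CPM in NFs alone, 8.06 to 24.4 CPM in NFs from shared gels and 2.34 to 4.07 CPM in tumor cells. In bulk libraries, fewer expressing cells and less RNA per cell cannot be told apart.

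Per kilobase, Ccn1 was the highest of the 8 genes in every group, with means of 478 CPM per kilobase in NFs alone, 256 in NFs in co-culture, 564 in tumor cells alone and 607 in tumor cells in co-culture. In NFs alone it was followed by Ccn5 (181), Ccn2 (151) and Ccn3 (135), whose ranges overlapped, then by Axl (46.3), Amotl2 (25.7), Ccn4 (19.9) and Ankrd1 (2.40). In co-culture the order in NFs was Ccn1, Ccn2 (178) and Axl (140), again with overlapping ranges, and Ccn5 (11.2) and Ccn3 (1.11) had moved to the lower end. In tumor cells alone Axl was second (192), followed by Amotl2 (31.3), Ankrd1 (25.0), Ccn3 (12.9), Ccn2 (10.0), Ccn5 (4.43) and Ccn4 (0.626). The place of Ccn3 there rests on 13-MCB-17, at 24.9 against 0.798 CPM per kilobase in 10-SJK-221, and its range overlapped those of Ankrd1, Ccn2 and Ccn5. In tumor cells in co-culture Ccn2 followed Axl (64.8 against 124), its range overlapping that of Amotl2 (56.7). Across the 10 libraries Ccn1 varied least, 3.24-fold from lowest to highest, and Ccn3 most, 1681-fold. The remaining family member, Ccn6, had 0 counts in every library.

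**Figure D1:**
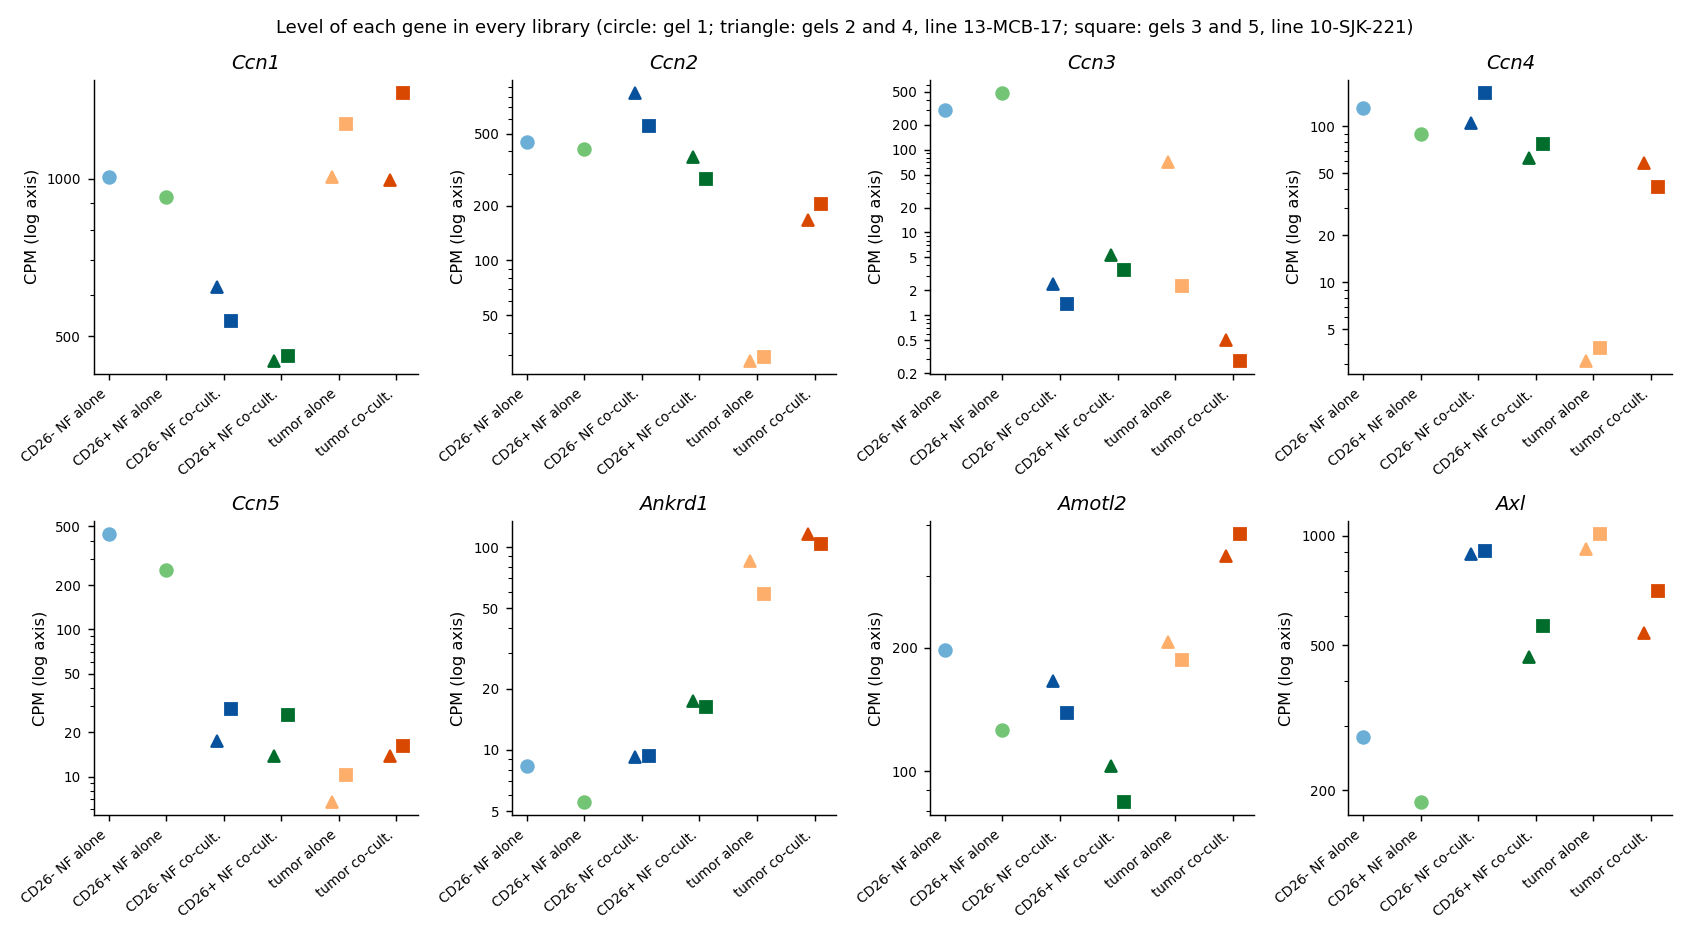
CPM of each of the 8 genes (log axis) in every library, with 1 point per library, coloured by group and shaped by gel. Ccn3 and Ccn5 fall in the NF co-culture libraries, Ccn2 and Ccn4 rise in the tumor co-culture libraries, and Ankrd1 is highest in the 4 tumor libraries, at 58.5 to 115 CPM against at most 17.5 CPM in NFs.

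The first comparison asked which of these genes set NFs apart from tumor cells when each grew alone. Of the 8 genes, 4 were higher and 2 lower in NFs, against a background of 55.5% of genes called in this comparison. Ccn2 stood at 449 and 413 CPM in the NF libraries and at 28.0 and 29.2 CPM in the tumor libraries, 16.5-fold higher in NFs (log2 4.04 ± 0.24 SE, adjusted p = 3.45e-06). Ccn4 stood at 132 and 90.1 CPM against 3.15 and 3.82 CPM (log2 5.10 ± 0.34, adjusted p = 6.41e-06). Ccn5 stood at 441 and 253 CPM against 6.74 and 10.3 CPM (log2 5.43 ± 0.43, adjusted p = 1.50e-05). For these 3 matrix proteins every NF library was well above every tumor library. Ccn3 stood at 298 and 479 CPM in NFs, but the tumor lines differed, with 71.5 CPM in 13-MCB-17 and 2.29 CPM in 10-SJK-221 (log2 3.45 ± 1.10, adjusted p = 0.0269). Its log2 value was 7.53 without gel 2 and 2.50 without gel 3. Ankrd1 went the other way, with 8.32 and 5.54 CPM in NFs against 85.7 and 58.5 CPM in tumor cells (log2 -3.28 ± 0.24, adjusted p = 9.76e-06). Axl did so too, with 281 and 186 CPM against 921 and 1007 CPM (log2 -1.95 ± 0.19, adjusted p = 6.23e-05). Ccn1 (1006 and 924 CPM against 1008 and 1270 CPM) and Amotl2 (197 and 126 CPM against 207 and 187 CPM) did not pass the test, with log2 values of -0.11 ± 0.21 and -0.19 ± 0.16 and adjusted p of 0.692 and 0.346. The NF arm is a single gel, so gel and cell type cannot be told apart in this comparison.

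Within the shared gels, in libraries that later comparisons use again, the same question gave 2 genes higher and 3 lower in NFs, against 51.8% of genes called. Ccn2 stood at 837 and 550 CPM in the CD26- and 373 and 282 CPM in the CD26+ libraries against 166 and 204 CPM in tumor cells, 2.94-fold higher in NFs (log2 1.56 ± 0.20, adjusted p = 0.000289). Ccn4 stood at 105 and 164 CPM in the CD26- and 62.4 and 77.6 CPM in the CD26+ libraries against 58.6 and 40.8 CPM (log2 1.16 ± 0.25, adjusted p = 0.00513). For both genes the lowest NF library was above the highest tumor library. Ankrd1 stood at 9.27 and 9.38 CPM in the CD26- and 17.5 and 16.2 CPM in the CD26+ libraries against 115 and 103 CPM (log2 -2.93 ± 0.18, adjusted p = 4.60e-06). Amotl2 stood at 166 and 139 CPM in the CD26- and 103 and 84.2 CPM in the CD26+ libraries against 335 and 378 CPM (log2 -1.38 ± 0.13, adjusted p = 5.73e-05). Ccn1 stood at 622 and 535 CPM in the CD26- and 450 and 459 CPM in the CD26+ libraries against 994 and 1458 CPM (log2 -1.06 ± 0.17, adjusted p = 0.00119). The nuclear and scaffold targets Ankrd1 and Amotl2, and Ccn1, were thus above every NF library in the tumor cells of the same gels. Axl, Ccn5 and Ccn3 did not pass, with adjusted p of 0.122, 0.0915 and 0.131. Axl and Ccn5 overlapped between the cell types, whereas Ccn3 stood at 1.38 to 5.40 CPM in NFs and 0.509 and 0.285 CPM (9 and 5 counts) in tumor cells. With gel as a block, fitted on the 6 shared-gel libraries and not on all 10, 7 of the 8 genes and 59.5% of all genes were called, now including Ccn3 (log2 3.06 ± 0.38, adjusted p = 0.000325) and Ccn5 (log2 0.67 ± 0.19, adjusted p = 0.0199). Without gel 5, 3 of the 8 and 15.6% of all genes were called, and Ccn1 (adjusted p = 0.124) and Ccn4 (adjusted p = 0.141) no longer passed.

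The second question was how co-culture with tumor cells changed these genes in NFs. Over both subsets 2 genes rose and 4 fell, against 48.8% of genes called. The deepest fall was that of Ccn3, from 298 and 479 CPM in NFs alone to 2.42 and 1.38 CPM in the CD26- and 5.40 and 3.54 CPM in the CD26+ libraries. This was 124-fold (log2 -6.95 ± 0.21, adjusted p = 5.47e-08), and no co-culture library came near the NFs grown alone. Ccn5 fell from 441 and 253 CPM to 17.5 and 28.7 CPM in the CD26- and 13.8 and 26.3 CPM in the CD26+ libraries (log2 -3.92 ± 0.27, adjusted p = 4.83e-06), again with no overlap. Ccn1 fell more modestly, from 1006 and 924 CPM to 450 to 622 CPM (log2 -0.87 ± 0.14, adjusted p = 0.000653). Axl rose in every co-culture library, from 281 and 186 CPM to 890 and 907 CPM in the CD26- and 465 and 565 CPM in the CD26+ libraries, 3.08-fold (log2 1.62 ± 0.16, adjusted p = 3.93e-05). Amotl2 was lower by log2 -0.36 ± 0.13 (adjusted p = 0.0441), with overlapping ranges of 126 to 197 CPM alone and 84.2 to 166 CPM in co-culture. Ccn2 (413 and 449 CPM alone, 282 to 837 CPM in co-culture) and Ccn4 (90.1 and 132 CPM alone, 62.4 to 164 CPM) did not pass, with log2 values of 0.16 ± 0.24 and -0.12 ± 0.21 and adjusted p of 0.610 and 0.664. In NFs, Ccn3, Ccn5 and Ccn1 were thus called lower in co-culture, with no call for Ccn2 and Ccn4. Whether these genes differed from each other in their change was not tested. Only gel 1 held NFs alone, so co-culture and that gel cannot be told apart, and the summed fibroblast markers were also lower, at 23316 to 41536 CPM in co-culture against 69497 to 74846 CPM alone. This sum is mostly Col3a1, Col1a1 and Col1a2, and of the 8 markers 4 were called lower and 2 higher in co-culture, the latter Thy1 (log2 1.30 ± 0.31, adjusted p = 0.00651) and Dcn (0.50 ± 0.15, adjusted p = 0.0237). All 7 epithelial and both immune markers that could be tested (Cd68 and Csf1r) were called higher in co-culture. Of the 4 endothelial markers 2 were called higher (Pecam1 and Cdh5) and 1 lower (Tek), of the 4 pericyte markers 1 was called higher (Notch3), and of the 3 myoepithelial markers tested 1 was called higher (Krt14) and 1 lower (Trp63). The part of any of these markers in the falls of Ccn3, Ccn5 and Ccn1 was not tested.

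Ankrd1 was called in NFs over both subsets, from 8.32 and 5.54 CPM alone to 9.27 and 9.38 CPM in the CD26- and 17.5 and 16.2 CPM in the CD26+ libraries (log2 0.88 ± 0.30, adjusted p = 0.0334). Its level was also the one for which tumor RNA could count most. The epithelial-marker share multiplied by the Ankrd1 level of the tumor cells in the same gel came to 3.08 to 6.60 CPM, or 28.7% to 40.8% of what the NF libraries held. The rest was 5.84 and 6.30 CPM in CD26- NFs, against 8.32 CPM in the 1 library of CD26- NFs alone. In CD26+ NFs it was 12.5 and 9.59 CPM, against 5.54 CPM in the 1 library alone. The part of tumor RNA in the Ankrd1 call was not tested. The same product was up to 28.7% of Amotl2 and up to 20.3% of Ccn1, and for Ccn2, Ccn3, Ccn4, Ccn5 and Axl it was at most 7.96%. Leaving out gel 4 or gel 5 ended the Ankrd1 call (adjusted p = 0.0512 and 0.103), and leaving out gel 5 ended that of Amotl2 (adjusted p = 0.243), as did dropping the filter on low counts (adjusted p = 0.0612).

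**Figure D2:**
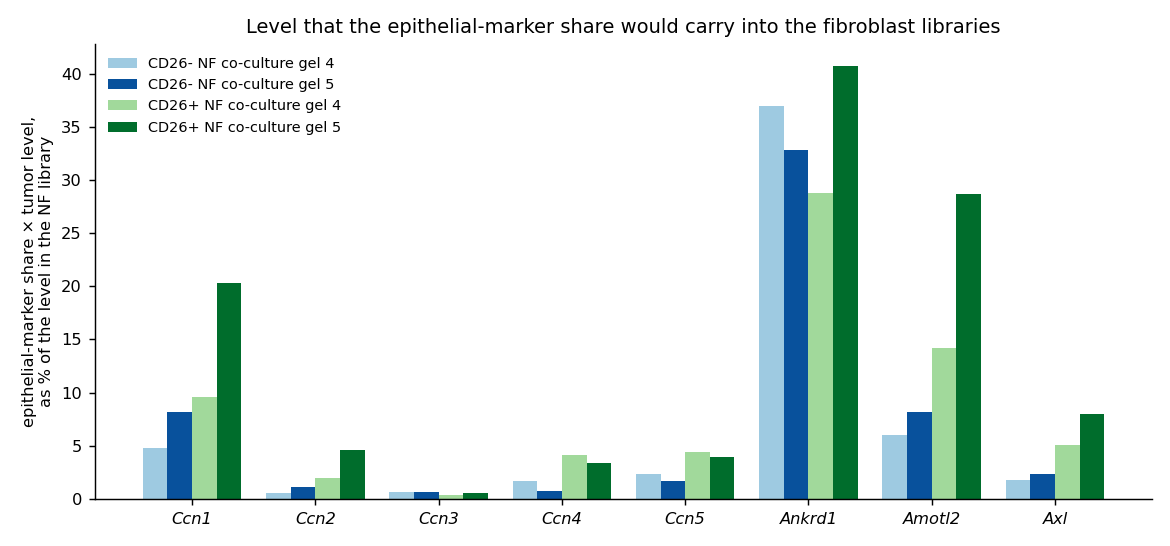
For each gene and each NF library from a shared gel, the epithelial-marker share times the level in tumor cells of that gel, as a percentage of the level in the NF library. Each bar is 1 library, and Ankrd1 stands highest at 28.7% to 40.8%, while Ccn3 is at most 0.625%.

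Each subset had a single library grown alone, so within a subset the spread came from the co-culture groups, and the lone library was assumed to vary like them. Within CD26- NFs 1 gene rose and 3 fell (30.8% of genes called), and within CD26+ NFs 2 rose and 3 fell (34.2% of genes called). Ccn1, Ccn3 and Ccn5 fell and Axl rose in each subset, with Axl at log2 1.75 ± 0.24 in CD26- NFs and 1.51 ± 0.24 in CD26+ NFs. Ankrd1, with 134 counts in the lone CD26- and 79 in the lone CD26+ library, was also called in CD26+ NFs (log2 1.64 ± 0.29, adjusted p = 0.000657), against 0.23 ± 0.27 in CD26- NFs (adjusted p = 0.549). Ccn2 had values of opposite sign, 0.69 ± 0.26 for CD26- NFs with adjusted p = 0.0627, against -0.30 ± 0.25 for CD26+ NFs with adjusted p = 0.380. It was called in CD26- NFs by DESeq2 (log2 0.69, adjusted p = 0.0363) and without gel 5 (log2 0.89, adjusted p = 0.00397), and in CD26+ NFs without gel 4 (log2 -0.49, adjusted p = 0.0468), where Amotl2 was called too (log2 -0.53, adjusted p = 0.0449). The test of this difference, the interaction of subset and culture, called 0 of the 8 genes and 0.376% of all genes by edgeR. DESeq2 called 0 of the 8 and 0.598% of all genes. The lowest adjusted edgeR p of the 8 were 0.191 for Ankrd1 and 0.470 for Ccn2. With gel as a block, which leaves 1 residual degree of freedom, both passed among 2.43% of genes called, Ankrd1 at log2 1.41 ± 0.38 (adjusted p = 0.0139) and Ccn2 at -0.97 ± 0.30 (adjusted p = 0.0442).

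In tumor cells the co-culture comparison had a partner for each line. With line as a term these 4 libraries leave 1 residual degree of freedom, so the SEs below rest on little. Of the markers tested, 5 of 6 fibroblast ones were called higher. Called lower were 3 of 8 epithelial, 1 of 3 myoepithelial and 1 of 3 endothelial ones. Of 2 immune markers, Csf1r was called higher and Cd68 lower. The part of any of these markers was not tested. Of the 8 genes 5 rose and 2 fell, against 22.3% of genes called. Ccn4 rose from 3.15 to 58.6 CPM in 13-MCB-17 and from 3.82 to 40.8 CPM in 10-SJK-221, 13.9-fold over both lines (log2 3.80 ± 0.21, adjusted p = 2.79e-05). Ccn2 rose from 28.0 to 166 CPM and from 29.2 to 204 CPM (log2 2.66 ± 0.11, adjusted p = 1.56e-05). The rise was seen in each line for these matrix genes, and the groups did not overlap. The fibroblast-marker share times the NF level came to at most 3.50 CPM for Ccn2 and 0.483 CPM for Ccn4, which is at most 2.10% and 0.890% of the tumor levels. Amotl2 rose from 207 to 335 CPM and from 187 to 378 CPM (log2 0.83 ± 0.12, adjusted p = 0.00227). Ankrd1 rose from 85.7 to 115 CPM and from 58.5 to 103 CPM (log2 0.60 ± 0.12, adjusted p = 0.00950), and Ccn5 from 6.74 to 13.9 CPM and from 10.3 to 16.2 CPM (log2 0.82 ± 0.18, adjusted p = 0.0143). These 3 rises were smaller than those of Ccn2 and Ccn4 but had the same direction in each line. Axl fell from 921 to 540 CPM and from 1007 to 704 CPM (log2 -0.67 ± 0.13, adjusted p = 0.00749). Ccn3 fell from 71.5 to 0.509 CPM in 13-MCB-17 and from 2.29 to 0.285 CPM in 10-SJK-221 (log2 -6.38 ± 0.57, adjusted p = 0.000239). The log2 ratio was -7.16 in 13-MCB-17 and -3.01 in 10-SJK-221, where 36 counts fell to 5. The fitted Ccn3 value thus does not describe each line. Ccn1 did not pass, at 1008 and 994 CPM in 13-MCB-17 and 1270 and 1458 CPM in 10-SJK-221 (log2 0.06 ± 0.13, adjusted p = 0.782). In a joint fit of all 10 libraries 6 of the 8 genes and 10.7% of all genes were called, and leaving a tumor library out of that joint fit, with the fibroblast libraries kept, gave 3 or 4 of the 8 and 2.39% to 5.99% of all genes. Ccn2, Ccn3 and Ccn4 were called in each of these fits, and without line as a term 0 of the 8 were (smallest adjusted p = 0.0774), as were 0 of all 13197 genes tested.

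**Figure D3:**
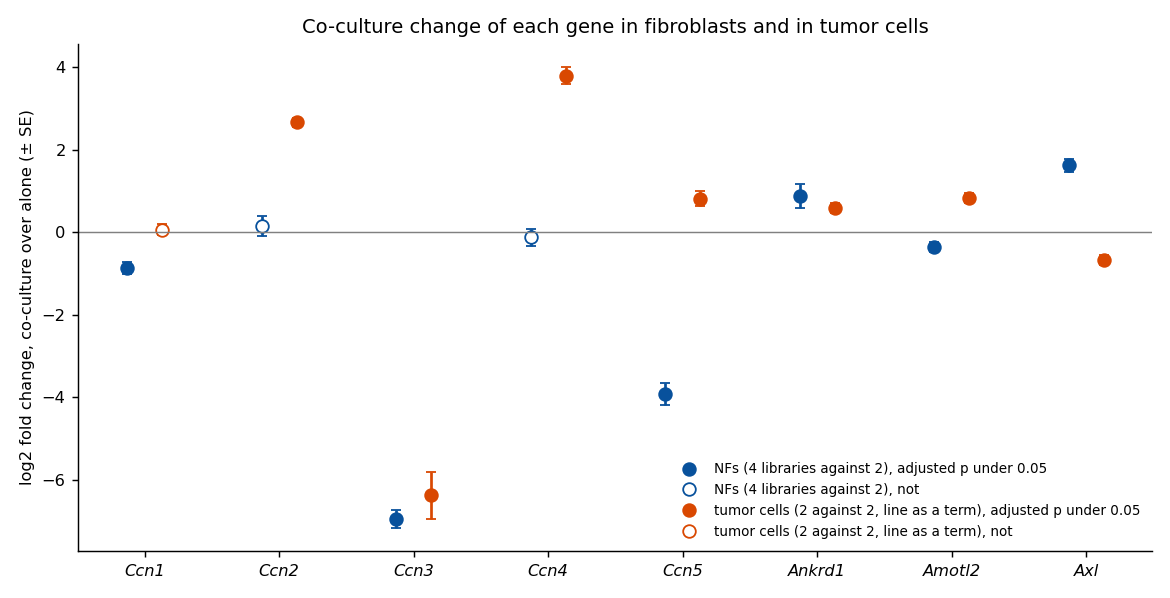
Log2 fold change from culture alone to co-culture for each gene, in NFs (blue) and in tumor cells (orange), with SE bars and filled points where the adjusted p was under 0.05. Ccn3 falls in each cell type, Ccn2 and Ccn4 are called higher in tumor cells and not called in NFs, and Axl rises in NFs (1.62) and falls in tumor cells (-0.67).

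Whether co-culture acted differently on the cell types was tested as a difference of changes over all 10 libraries, a comparison added after the values had been seen. It called 6 of the 8 genes, 1 higher and 5 lower in NFs than in tumor cells, against 31.4% of genes. Axl had the higher change in NFs (difference of log2 changes 2.28 ± 0.23, adjusted p = 6.44e-05). Ccn5 (-4.75 ± 0.44, adjusted p = 4.47e-05), Ccn4 (-3.93 ± 0.37, adjusted p = 4.57e-05), Ccn2 (-2.52 ± 0.35, adjusted p = 0.000519), Amotl2 (-1.20 ± 0.20, adjusted p = 0.00121) and Ccn1 (-0.94 ± 0.20, adjusted p = 0.00593) had the lower change in NFs. The difference was -0.60 ± 0.86 for Ccn3 (adjusted p = 0.657) and 0.27 ± 0.37 for Ankrd1 (adjusted p = 0.640), too wide for Ccn3 to show whether the falls were alike. In the shared gels Ccn5 stood at 13.8 to 28.7 CPM in NFs and 13.9 and 16.2 CPM in tumor cells, so that the cell types overlapped. Ccn1 was not called without gel 3 (adjusted p = 0.0685) or gel 5 (adjusted p = 0.137), and Amotl2 was not called without gel 5 (adjusted p = 0.0724). Ccn3 was called without gel 2 (difference -3.98, adjusted p = 0.0229) or gel 4 (difference -4.31, adjusted p = 0.0143).

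A further question was how the fibroblast subsets differed. Over the 3 gels that held NFs, 4 of the 8 genes were lower in CD26+ NFs and none higher, against 7.53% of genes called. Amotl2 was 126 CPM in CD26+ and 197 CPM in CD26- NFs of gel 1, 103 and 166 CPM in gel 4, and 84.2 and 139 CPM in gel 5 (log2 -0.84 ± 0.13, adjusted p = 0.00701). Axl was 186 and 281 CPM in gel 1, 465 and 890 CPM in gel 4, and 565 and 907 CPM in gel 5 (log2 -0.89 ± 0.14, adjusted p = 0.00919). Ccn4 was 90.1 and 132 CPM in gel 1, 62.4 and 105 CPM in gel 4, and 77.6 and 164 CPM in gel 5 (log2 -0.97 ± 0.20, adjusted p = 0.0236). Ccn2 was 413 and 449 CPM in gel 1, 373 and 837 CPM in gel 4, and 282 and 550 CPM in gel 5 (log2 -0.92 ± 0.23, adjusted p = 0.0429). In each of these genes the CD26+ library was the lower of the pair in all 3 gels. How many of all genes kept their direction over the 3 gels was not counted. Ccn1 and Ccn5 were lower in CD26+ NFs in all 3 gels as well, but did not pass (adjusted p = 0.0797 and 0.214). Ccn3 was higher in all 3 gels (log2 0.80 ± 0.21, adjusted p = 0.0519), and Ankrd1 was lower in gel 1 and higher in gels 4 and 5 (log2 0.26 ± 0.27, adjusted p = 0.592). DESeq2 called Ccn1 (adjusted p = 0.0154) and Ccn3 (adjusted p = 0.00647) as well, among 11.2% of all genes. RLE scaling called Ccn3 (adjusted p = 0.0465), among 7.57% of all genes. With gel as a block 8.87% of all genes were called, and Ccn3 (log2 0.79 ± 0.17, adjusted p = 0.0234) and Ccn5 (log2 -0.59 ± 0.15, adjusted p = 0.0401) passed too. Among the markers, without the block, 2 of 8 fibroblast ones were called lower in CD26+ NFs (Pdgfrb and Col1a2). Called higher were 1 of 7 epithelial (Cldn3), 1 of 4 endothelial (Kdr) and 1 of 4 pericyte ones (Kcnj8). The part of these markers in the subset differences was not tested. Without gel 5, 0 of the 8 genes and 17 of all genes were called, with adjusted p of 0.352 for Ccn2, 0.155 for Ccn4, 0.141 for Amotl2 and 0.146 for Axl, and without gel 4 Ccn2 was not called (adjusted p = 0.100).

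**Figure D4:**
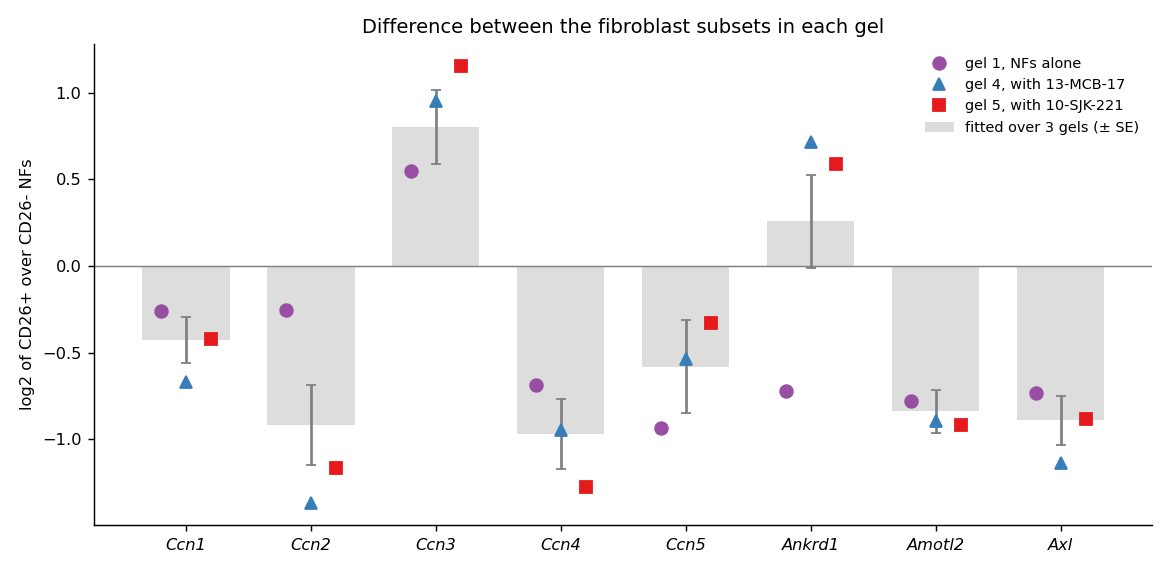
Log2 ratio of CD26+ over CD26- NFs in each gel (points, TMM-scaled CPM) and the fitted difference over 3 gels (grey bars with SE). Ccn1, Ccn2, Ccn4, Ccn5, Amotl2 and Axl are below 0 in each gel, Ccn3 is above 0 in each gel, and Ankrd1 changes side between gel 1 (-0.72) and gels 4 and 5 (0.71 and 0.59).

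In the shared gels alone, 4 of the 8 genes were lower and 1 higher in CD26+ NFs, against 6.01% of genes called. The lower genes were Ccn2 (log2 -1.25 ± 0.21, adjusted p = 0.00333), Ccn4 (-1.12 ± 0.23, adjusted p = 0.0104), Axl (-0.98 ± 0.18, adjusted p = 0.00654) and Amotl2 (-0.88 ± 0.17, adjusted p = 0.00879). Ccn3 was higher (1.07 ± 0.29, adjusted p = 0.0492), at 84 and 50 counts in CD26+ against 40 and 24 counts in CD26- NFs. In the 4 shared-gel NF libraries on their own 4 of the 8 genes and 6.78% of all genes were called without a block. With gel as a block in these 4 libraries, which again leaves 1 residual degree of freedom, 16.7% of all genes were called, and Ccn1 (-0.51 ± 0.17, adjusted p = 0.0234) and Ankrd1 (0.69 ± 0.20, adjusted p = 0.00680) passed as well. Without gel 5, 2 of the 8 and 1.88% of all genes were called, and Ccn3, Ccn4 and Amotl2 had adjusted p of 0.395, 0.0682 and 0.0541. These leave-out fits used all other libraries, tumor cells included. Ccn3 was not called without gel 4 either (adjusted p = 0.255), nor with all 10 libraries in the fit (adjusted p = 0.169) or without the filter on low counts (adjusted p = 0.118). The epithelial-marker share was larger in the CD26+ libraries and the summed fibroblast markers were lower, at 23316 and 29342 CPM against 37998 and 41536 CPM. Of the 8 markers 4 were called lower in CD26+ NFs, Col1a1, Col1a2, Col3a1 and Pdgfrb (log2 -0.996 ± 0.244, adjusted p = 0.0293), and 0 higher. Dcn (2935 and 2867 CPM against 2157 and 1909 CPM) and Thy1 (639 and 1293 CPM against 464 and 725 CPM) did not pass the test (adjusted p = 0.332 and 0.365). Endothelial markers summed to 24.4 and 14.8 CPM in CD26+ against 10.1 and 8.06 CPM in CD26- NFs, with 2 of 4 called higher (Kdr and Tek). Pericyte markers summed to 134 and 160 CPM against 194 and 285 CPM, with 1 of 4 called higher (Kcnj8) and 1 lower (Notch3). The part of the share or of any of these markers in these differences was not tested.

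Genes of the YAP pathway itself moved in both directions, and no list was tested as a whole. The counts of every list below are to be read against 48.8% of all genes called in NF culture and 22.3% in tumor culture. Of 8 genes for YAP, TAZ, the TEADs and Vgll cofactors, 1 rose and 3 fell in NFs in co-culture (median log2 0.10, all genes 0.02), and 1 rose and 1 fell in tumor cells (median 0.06, all genes 0.01). Yap1 stood at 144 CPM in each NF library grown alone and at 148 to 166 CPM in the co-culture NF libraries. Vgll3 (log2 -1.35 ± 0.18) and Vgll4 (adjusted p = 0.000139), cofactors that also bind TEADs, and Tead3 (-0.43 ± 0.14) fell in NFs. Tead4 rose in NFs, from 1.06 and 0 CPM to 4.55 to 8.03 CPM, of which the tumor share could be 8.69% to 26.3%, and fell in tumor cells (log2 -1.40 ± 0.13). Of 19 Hippo kinases and scaffolds, 5 rose and 5 fell in NFs (median -0.16), and 4 rose and 2 fell in tumor cells (median -0.01), against 48.8% and 22.3% of all genes called. Amot, the founding angiomotin, fell from 93.1 and 86.0 CPM to 9.40 to 16.6 CPM in NFs (log2 -2.61 ± 0.18, adjusted p = 3.96e-06) and rose in tumor cells (0.73 ± 0.10, adjusted p = 0.00188). Wwc1, a scaffold also called Kibra, was called higher in NFs (log2 2.41). The epithelial-marker share times its tumor level was 83.2% to 114% of its level there. A product above the level itself means that the share overstates tumor RNA for this gene in that library. The part of tumor RNA in the Wwc1 call was not tested. Of 17 further YAP targets, 8 rose and 4 fell in NFs (median 0.38), and of the 13 tested in tumor cells 4 rose and 5 fell (median 0.01). Nt5e, which encodes the ectonucleotidase CD73, rose in NFs (log2 3.07 ± 0.14) and in tumor cells (2.37 ± 0.18), whereas F3, which encodes tissue factor, fell in NFs (-2.77 ± 0.18) and in tumor cells (-0.72 ± 0.10). Nuak2, a kinase, rose in NFs (1.83 ± 0.25) and in tumor cells (1.05 ± 0.11). The tumor share was 12.6% to 23.6% of the NF levels of Nt5e and 8.35% to 25.7% of those of Nuak2. Lats2 and Ptpn14 are on the Hippo list and on the target list.

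The ligands of Axl and the receptors of CCN proteins were described next. Gas6, the Axl ligand, stood at 2257 and 2132 CPM in NFs alone and at 65.8 to 110 CPM in the 4 co-culture NF libraries (log2 -4.67 ± 0.18, adjusted p = 2.00e-07), while tumor libraries held 0.570 to 1.03 CPM. Pros1, a related ligand of the receptor family, fell from 598 and 574 CPM to 182 to 236 CPM (log2 -1.43 ± 0.14, adjusted p = 3.31e-05). The sister receptors Tyro3 (adjusted p = 0.179) and Mertk (adjusted p = 0.747) did not pass in NFs. The ligands were thus at their lowest NF levels in the same libraries in which Axl was higher. Of 9 receptors of CCN proteins, 5 rose and 2 fell in NFs (median 0.78), and 3 rose and 1 fell in tumor cells (median 0.14), beside the same 48.8% and 22.3% of all genes. Itgb3, the integrin beta-3 chain, rose from 13.5 and 13.2 CPM to 332 to 521 CPM in NFs (log2 5.04 ± 0.20, adjusted p = 2.00e-07) and from 17.7 and 10.4 CPM to 158 and 126 CPM in tumor cells (3.33 ± 0.14, adjusted p = 1.56e-05), and the tumor share was at most 2.43% of its NF levels. Itga6, a laminin-binding chain, was called higher in NFs (4.66 ± 0.27), with a tumor share of 20.7% to 41.04%, and fell in tumor cells (-0.92 ± 0.14). Between the subsets over 3 gels, Tead1 (-0.96 ± 0.17, adjusted p = 0.0142) and Itgav, the integrin alpha-v chain (-0.71 ± 0.15, adjusted p = 0.0269), were lower in CD26+ NFs, the calls among 8 pathway effectors and 9 receptors, beside 7.53% of all genes called and 17 genes called without gel 5. Of the 17 further YAP targets 1 was called higher, Igfbp3, which encodes a binding protein of insulin-like growth factors, where the CD26+ libraries of gels 1, 4 and 5 held 364, 515 and 1141 CPM and the CD26- libraries 92.8, 124 and 181 CPM (log2 2.13 ± 0.29, adjusted p = 0.00548). Rbms3 (-0.68 ± 0.16) and Tgfb2 (-0.53 ± 0.13) of that list and Frmd6 (-0.47 ± 0.12) of the 19 Hippo genes were called lower, and 0 of the 4 Axl partners were called.

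**Figure D5:**
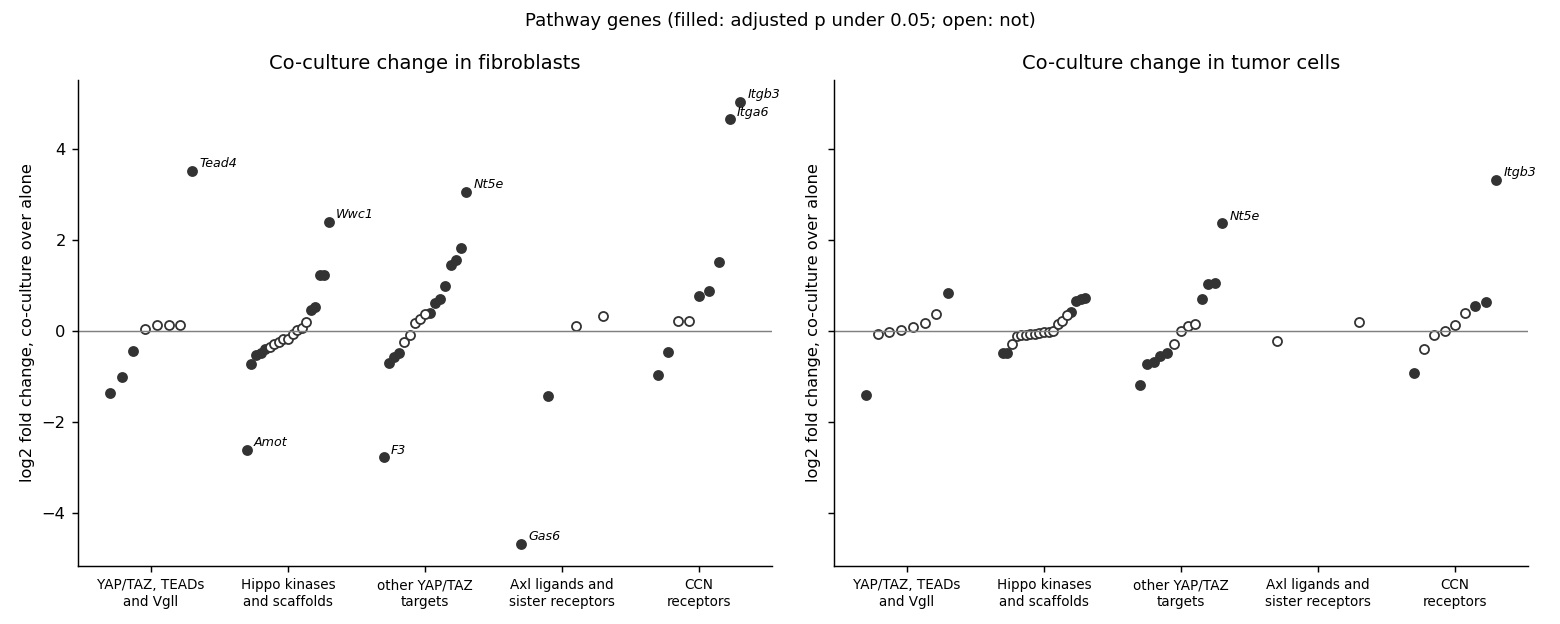
Log2 fold change from culture alone to co-culture for each pathway gene in NFs (left) and tumor cells (right), with filled points where the adjusted p was under 0.05 and names where the change also exceeded 2 on the log2 scale. Itgb3 (5.04 and 3.33) and Nt5e (3.07 and 2.37) rise in each cell type, and Gas6 (-4.67) falls in NFs.

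The genes with the most similar profile over the 10 libraries were sought among 13490 genes with a mean of at least 1 CPM, by the root mean square difference of centred log2(CPM + 0.5) values, as a description. Ccn2 and Ccn4 each had the other as second nearest gene (0.52), after Olfm2 (0.50) for Ccn2 and Lsp1 (0.30) for Ccn4, and Mmp19 came next for each (0.54 and 0.62). No other of the 8 genes had a member among its 3 nearest genes. Nearest to Ccn1 were Prmt3 (0.11), Smarcal1 (0.14) and Msto1 (0.15), and the genes near Amotl2 included Zfp748 (0.23) and Lrrk1 (0.25). Nearest to Ccn5 were Vegfd (0.44), Ildr2 (0.45) and Ctnna2 (0.47), and nearest to Ccn3 were Il1rn (1.55), Clec3b (1.55) and Galnt9 (1.70). Nearest to Ankrd1 were Platr16 (0.29), Arhgap9 (0.29) and Otx1 (0.32), and nearest to Axl were 2900026A02Rik (0.22), Srgap3 (0.27) and Slc25a43 (0.29). Profiles of low variation come closer to others by this measure, so its size is not comparable between genes.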

How the data were processed

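Stranded mRNA libraries were sequenced from sorted cells. The deposited table holds raw read counts per gene, made by the authors with no normalization. The submitters' processing notes name HISAT2 2.2.1 and GRCm38, while how reads were counted, whether by strand, and with which annotation is not given in the sources used here. Of 55140 genes with an ID in GENCODE M21, 99.4% had the same start and end. A row without gene ID (0 counts) was left out. CPM uses library totals of 14142334 to 18408940 counts, and floors of 3 counts cover counting error only.

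Tests used edgeR 4.0.16 in R 4.3.3 (quasi-likelihood, TMM scaling, filterByExpr) with Benjamini-Hochberg adjustment over all genes tested and a threshold of 0.05. Cell types were compared with 6 groups of 10 libraries, the subset and NF culture terms were fitted additively over 6 NF libraries, within-subset, within-co-culture and interaction terms with 4 groups, and tumor libraries with line and culture. The difference of the culture changes between cell types, added after the values were seen, used all 10 libraries. Nothing says that gels held separately derived cultures, so p-values measure the spread between these libraries, which may be technical. Scripts were tested on simulated data. Alternatives were RLE scaling, no filter, DESeq2 1.42.0, a further size criterion, gel as a block, all 10 libraries, no line term and leaving out gels. The block pairs libraries that the labels place in the same gel. Deviations of gel 4 libraries from their group means correlated at 0.119 (CD26- with CD26+ NFs), 0.118 and 0.0706 (each subset with tumor cells).

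The 8 genes and the pathway lists were chosen with earlier results of these data known. All 8 genes passed the filter in every comparison and are named throughout. From the lists, up to 3 called genes with the highest and 3 with the lowest log2 fold change could be named per comparison, with Yap1, Tyro3 and Mertk added after their values were seen, and 3 genes most alike per member. The marker lists held 8 fibroblast, 8 epithelial, 4 myoepithelial, 4 endothelial, 4 immune and 4 pericyte genes. Exon lengths are merged GENCODE M21 exons. A further allele of the tumor model and a gene with a profile like that of Amotl2 are not reported here.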

Additional observations from a re-analysis of the deposited data

Results flagged for a closer look

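The co-culture change differed between NFs and tumor cells, by a test of the difference itself, for 6 of the 8 genes and 31.4% of all genes. On the log2 scale the change in NFs minus that in tumor cells was -4.75 for Ccn5, -3.93 for Ccn4, -2.52 for Ccn2, -1.20 for Amotl2, -0.94 for Ccn1 and 2.28 for Axl. Axl changed in opposite directions, being higher in 4 of 4 co-culture NF libraries than in both NF libraries grown alone, and lower in co-culture in both tumor lines. The NF part of each difference rests on gel 1, which cannot be told apart from culture alone.

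Between the subsets, the co-culture change in CD26+ minus that in CD26- NFs was 1.41 for Ankrd1 and -0.97 for Ccn2 with gel as a block. Each subset had a single library grown alone, and this fit leaves 1 residual degree of freedom. Neither passed without the block, and the epithelial-marker share in Ankrd1 was 28.7% to 40.8% of its level in the co-culture NF libraries. Groups of fewer than 4 samples gave no check for single outlying libraries.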

How the results depend on the processing

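Of the fits of single genes under an alternative, 518 kept their direction and their side of the threshold, 72 lost a call, 25 gained one and 9 changed sign. The sign changes came from leaving out a gel and touched values that did not pass the test. Leaving out 1 gel at a time, the log2 difference ranged from -0.229 to 0.0293 for Ccn1 between cell types grown alone, from -0.00293 to 0.686 for Ankrd1 between subsets over 3 gels, from -0.0458 to 0.384 for Ccn2 and -0.422 to 0.136 for Ccn4 in NF culture, from -0.337 to 0.423 for Ccn4 within CD26- NFs, from -0.0643 to 0.196 for Ccn1 in tumor culture, and from -4.31 to 0.469 for Ccn3 between the culture changes of the cell types.

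With a further size criterion of a log2 fold change above 2, the members called, each with the share of all genes, were 5 between cell types grown alone (28.7%), 4 between the culture changes of the cell types (11.6%), 1 in shared gels (23.5%), 0 between subsets over 3 gels (1.28%), 0 between subsets in co-culture (1.37%), 2 in NF culture (13.6%), 2 within CD26- NFs (11.4%), 2 within CD26+ NFs (13.3%) and 3 in tumor culture (3.17%), by construction. DESeq2 called 8 in shared gels (46.0%). Without the line term 0 of the members and 0 of all 13197 genes were called in tumor culture, and the cause was not tested. Leaving out 1 gel, 3 to 5 were called in shared gels (15.6% to 18.2% of all genes), 0 to 4 between subsets over 3 gels (0.118% to 9.11%), 2 to 4 between subsets in co-culture (1.88% to 8.26%) and 3 to 4 in tumor culture (2.39% to 5.99%). For subsets in co-culture, culture within a subset and tumor culture these were joint fits of NF and tumor libraries, so the fit changed along with the library left out, and the cause was not tested. With all 10 libraries in that fit 6 were called in tumor culture (10.7%). Where this left a lone library, the spread was pooled over the other groups, so that library was assumed to vary like them. With gel as a replicate block, 2 were called for the interaction of subset and culture (2.43%), and the calls named with the block in the text above were gained, with no other call of the 8 genes changed. For shared gels and subsets in co-culture the blocked fits also left out the libraries grown alone, so these gains cannot be put down to the block alone. Depth limits Ccn3 in tumor cells in co-culture (9 and 5 counts), and only gel 1 held NFs alone.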
